A study of Mus musculus with 19 samples.

Results

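The 10 genes described here are imprinted genes known for their part in growth: H19, Igf2, Igf2r, Grb10, Dlk1, Meg3, Rian, Cdkn1c, Plagl1 and Peg3. They were found by their gene symbol in a deposited table of 24537 genes, and all 10 had a row. Their transcripts were measured by RNA sequencing of polyadenylated RNA from hepatocytes of 19 male C57BL/6J mice labelled wild type, with 1 library per mouse. The young group held 10 mice labelled 5 months and the old group 9 mice labelled 24 months; by the labelled birth and cull dates they were 140 to 163 and 719 to 742 days old. There were 2 cull days, 23 days apart, with 5 young and 5 old mice on the first and 5 young and 4 old mice on the second. No agent, transgene or deletion is named for any mouse. The cells came from a perfusion of the liver and were sequenced in bulk, so fewer cells of a type and less RNA per cell cannot be told apart, and reads were not assigned to the maternal or paternal copy of a gene.

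An imprinted gene is transcribed mainly from the copy inherited from one parent, set by DNA methylation laid down in the germ line. In fetal liver H19 and Igf2 are among the most abundant transcripts, read from neighbouring genes that share enhancers, and both are silenced in mouse liver within weeks of birth together with Dlk1 and other fetal genes. By the usual assignment of the active copy, Igf2, Dlk1, Plagl1 and Peg3 are read from the paternal copy and H19, Igf2r, Grb10, Meg3, Rian and Cdkn1c from the maternal one, 4 and 6 of the 10 genes.

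The libraries held 17381439 to 20287628 counts over genes. The hepatocyte markers summed to 89316 to 151315 CPM (a gene's counts relative to the depth of its library, here scaled by the trimmed mean of M-values, TMM) in young and 116238 to 193706 CPM in old libraries, with Alb the highest of the 10 by mean. Of these 10 markers, edgeR called 7 with age, where it called 30.9% of all genes tested. Alb and Apoa1 were called as higher and Cps1, Hnf4a, Tat, Pck1 and Tdo2 as lower in old mice. The median log2 fold change of the 10 was -0.28. Markers of other liver cells were also present, and those of stellate cells, endothelial cells and macrophages were higher in old mice. The 13 stellate cell markers summed to 53.4 to 141 CPM in young and 147 to 524 CPM in old mice. Of these, 12 passed as higher, where 16.3% of all genes tested did. The 13 endothelial markers summed to 169 to 308 and 187 to 617 CPM (11 passed as higher), and the 13 macrophage markers to 106 to 521 and 72.3 to 3558 CPM (13 passed as higher). None of the markers in these 3 lists was at 0 in every library. Cholangiocyte markers summed to 5.44 to 170 CPM in young and 7.96 to 63.6 CPM in old mice, and 0 of the 2 that passed the filter were called by edgeR (0 at an unadjusted p below 0.05). In edgeR without the filter 0 of 7 cholangiocyte markers were called, with Epcam at -1.99 and Krt19 at -1.69 (adjusted p = 0.132 and 0.215). Mesothelial markers summed to at most 0.29 CPM in young and 0.92 CPM in old mice, and none passed the filter. Old mouse 1187 had the highest sum in the stellate, endothelial and macrophage lists. Earlier results of these data placed it and young mice 1184, 1186 and 1188 apart from the rest, so results that rest on them are given without them too. Without these mice the cholangiocyte marker Sox9 was called as higher in old mice (0.89, edgeR adjusted p = 0.00228, against 0.32 with all mice). The other that passed the filter, Spp1, turned from -0.34 to 1.54 (edgeR adjusted p = 0.0913) and was not called.

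Igf2r was the only abundant member. Divided by the length of the counted transcript, its level averaged 4.77 ± 1.10 CPM per kilobase over the 10 young mice and 4.03 ± 0.84 over the 9 old mice (mean ± SD), and its lowest library in each age lay above the highest library of every other member. In young mice Cdkn1c (0.42 ± 0.10 CPM per kilobase), Grb10 (0.33 ± 0.14) and Peg3 (0.19 ± 0.09) came next, and H19, Meg3, Rian, Plagl1, Igf2 and Dlk1 lay at 0.0026 to 0.041 (means, n = 10). In old mice the order was Igf2r, Cdkn1c (0.54 ± 0.23), Grb10 (0.28 ± 0.10), Peg3 (0.23 ± 0.12) and H19 (0.18 ± 0.08), followed by Igf2 (0.086 ± 0.032) and Meg3 (0.086 ± 0.078). Below Igf2r, the ranges of neighbours in this order overlapped at both ages.

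The age comparison asked which of these genes differed between young and old hepatocytes. edgeR's quasi-likelihood test with cull day as a covariate was fitted over 12269 genes that passed a filter on low counts, and a gene was called at a Benjamini-Hochberg adjusted p below 0.05. Over all genes tested, 30.9% were called, 16.3% as higher and 14.5% as lower in old mice. Of the members, Igf2r, Grb10, Cdkn1c and Peg3 passed the filter and 0 of these 4 were called by edgeR. Igf2r was below an unadjusted p of 0.05, and DESeq2 called it (1 of 4, against 33.7% of the 12192 genes it gave an adjusted p), while limma-voom called 0 of 4 (against 32.6%). The other 6 members had too few reads for the filter. They were compared by their counts with an exact two-sided permutation test of the difference in mean CPM, in which the ages of mice were exchanged within each cull day in all 31752 arrangements; these 6 p-values are not adjusted for multiple tests. The edgeR fit without the filter, adjusted over 17806 genes, is given beside them. It called 24.9% of all genes, 13.3% as higher and 11.6% as lower, and 4 of the 10 members: H19, Igf2 and Dlk1 as higher and Igf2r as lower in old mice.

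H19, a maternally expressed long non-coding RNA that limits growth in the fetus, was at the edge of detection in young mice and rose in old mice. The gene lies on chromosome 7 (142575530 to 142578146, minus strand, mm10), 72.6 kb from Igf2. Its first exon holds the hairpin of miR-675, and Igf2 holds that of miR-483 in an intron. The mature sequences are shown because these small RNAs come from the same primary transcripts whose counts changed, although a polyadenylated library does not measure them and the rows of the hairpins themselves, Mir675 and Mir483, held 0 counts in all 19 libraries. The sequences are those of RefSeq (GRCm38.p6), with the seed, bases 2 to 8, in capitals. The 4 seeds differ from one another.
mmu-miR-675-5p (chr7:142577112-142577133, minus strand): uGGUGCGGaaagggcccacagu
mmu-miR-675-3p (chr7:142577078-142577099, minus strand): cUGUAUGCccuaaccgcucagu
mmu-miR-483-5p (chr7:142654968-142654989, minus strand): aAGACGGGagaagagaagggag
mmu-miR-483-3p (chr7:142654932-142654952, minus strand): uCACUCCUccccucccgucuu

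The 10 young libraries held 0 to 4 estimated counts of H19 (median 1.25) and the 9 old libraries 4 to 15 (median 8.5). All 9 old libraries held H19 reads, and 6 of them held more than any young library. Of the 10 young libraries, 9 had fewer than every old one, and young mouse 1186, with 4 counts, was the exception. Old libraries also held more genes with any count (15356 to 16332) than young ones (14879 to 15285). The part of this in the low counts of H19, Igf2 and Dlk1 was not tested. The share of all genes with such a split between ages was not worked out. Summed over mice there were 75.5 counts in old and 16.5 in young libraries. With rounded counts the sums were 75 and 17, a ratio of 4.52 per unit of depth (exact 95% interval 2.64 to 8.16, which covers counting error only). Mean H19 levels were 0.41 ± 0.19 CPM in old (SD, n = 9) and 0.093 ± 0.075 CPM in young mice (SD, n = 10), a difference of 0.32 CPM averaged over cull days (exact permutation p = 6.3e-05). Taken by cull day, the H19 difference was 0.30 CPM among the first mice (exact permutation p = 0.0159) and 0.34 CPM among the second (exact permutation p = 0.00794). In edgeR without the filter the log2 fold change of H19 was 2.06 (SE 0.44, adjusted p = 0.00264).

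Igf2 encodes insulin-like growth factor 2, the fetal growth factor that H19 shares its enhancers with, and it moved with age in the same direction. Igf2 lies on chromosome 7 (142650768 to 142658804, minus strand). The 250 bases before the start of the counted Igf2 transcript (RefSeq, GRCm38.p6) are shown because both Igf2 and H19 were higher in old mice. Igf2 has other listed start sites, at 142666816, 142661271 and 142657496. Counts over exons do not show which start site was used. In windows of 300 bases around the starts, these held 2, 14 and 7 CpG dinucleotides and 0, 0 and 2 GC boxes. The start of the counted transcript held 24 and 1. Searched on both strands for the TATA box (TATAAA), the GC box (GGGCGG) and the CCAAT box (CCAAT), none of which overlapped, the window held a GC box, in capitals as its reverse complement, and neither of the others. Windows of this length before all 32851 listed start sites held a GC box in 32.7%, a TATA box in 12.4% and a CCAAT box in 33.8%. The window held 22 CpG dinucleotides against a median of 6.
Igf2 promoter (chr7:142658805-142659054, minus strand): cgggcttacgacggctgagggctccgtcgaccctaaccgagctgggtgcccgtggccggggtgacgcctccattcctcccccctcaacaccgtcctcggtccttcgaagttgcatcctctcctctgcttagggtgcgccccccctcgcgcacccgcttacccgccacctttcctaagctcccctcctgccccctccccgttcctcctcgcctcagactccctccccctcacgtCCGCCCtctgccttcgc

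Young libraries held 0 to 3 counts of Igf2 (median 1), with 4 of 10 at 0, and old libraries 3 to 12.5 (median 7). Of the 9 old libraries, 8 held more Igf2 reads than any young library, and old mouse 1181 with 3 counts equalled the 2 highest young mice. The summed counts were 61.5 in old and 11 in young libraries. With rounded counts the sums were 62 and 11, a ratio of 5.77 per unit of depth (exact 95% interval 3.01 to 12.2). Means were 0.35 ± 0.13 CPM in old (SD, n = 9) and 0.061 ± 0.067 CPM in young mice (SD, n = 10), and the difference of 0.29 CPM had an exact permutation p of 3.15e-05, the smallest the relabellings can give. The Igf2 difference was 0.31 CPM on the first and 0.27 CPM on the second cull day (exact permutation p = 0.00794 on each). In edgeR without the filter the log2 fold change was 2.43 (SE 0.49, adjusted p = 0.0018).

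Dlk1, a transmembrane protein related to the Notch ligands that marks fetal hepatoblasts and preadipocytes, was the third member higher in old mice, and per kilobase it had the lowest mean level of the 10 at both ages. It lies on chromosome 12 (109453455 to 109463336, plus strand). Young libraries held 0 to 1 counts (8 of 10 at 0) and old libraries 0 to 3 (median 2), with reads in 8 of 9. The counts summed to 2 in young and 17 in old mice. The young sum lay below the floor of 3 counts over a group that was set for a fold. The ratio is therefore given only as its wide exact 95% interval, 2.07 to 77.7, and the fold changes of Dlk1 are not read as sizes. The difference was 0.085 CPM (exact permutation p = 0.000913), with 6 of 9 old mice above all young mice. The cull days gave 0.067 CPM (exact permutation p = 0.0873) and 0.10 CPM (exact permutation p = 0.0159). In edgeR without the filter the log2 fold change was 2.52 (SE 0.64, adjusted p = 0.0083).

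**Figure D1:**
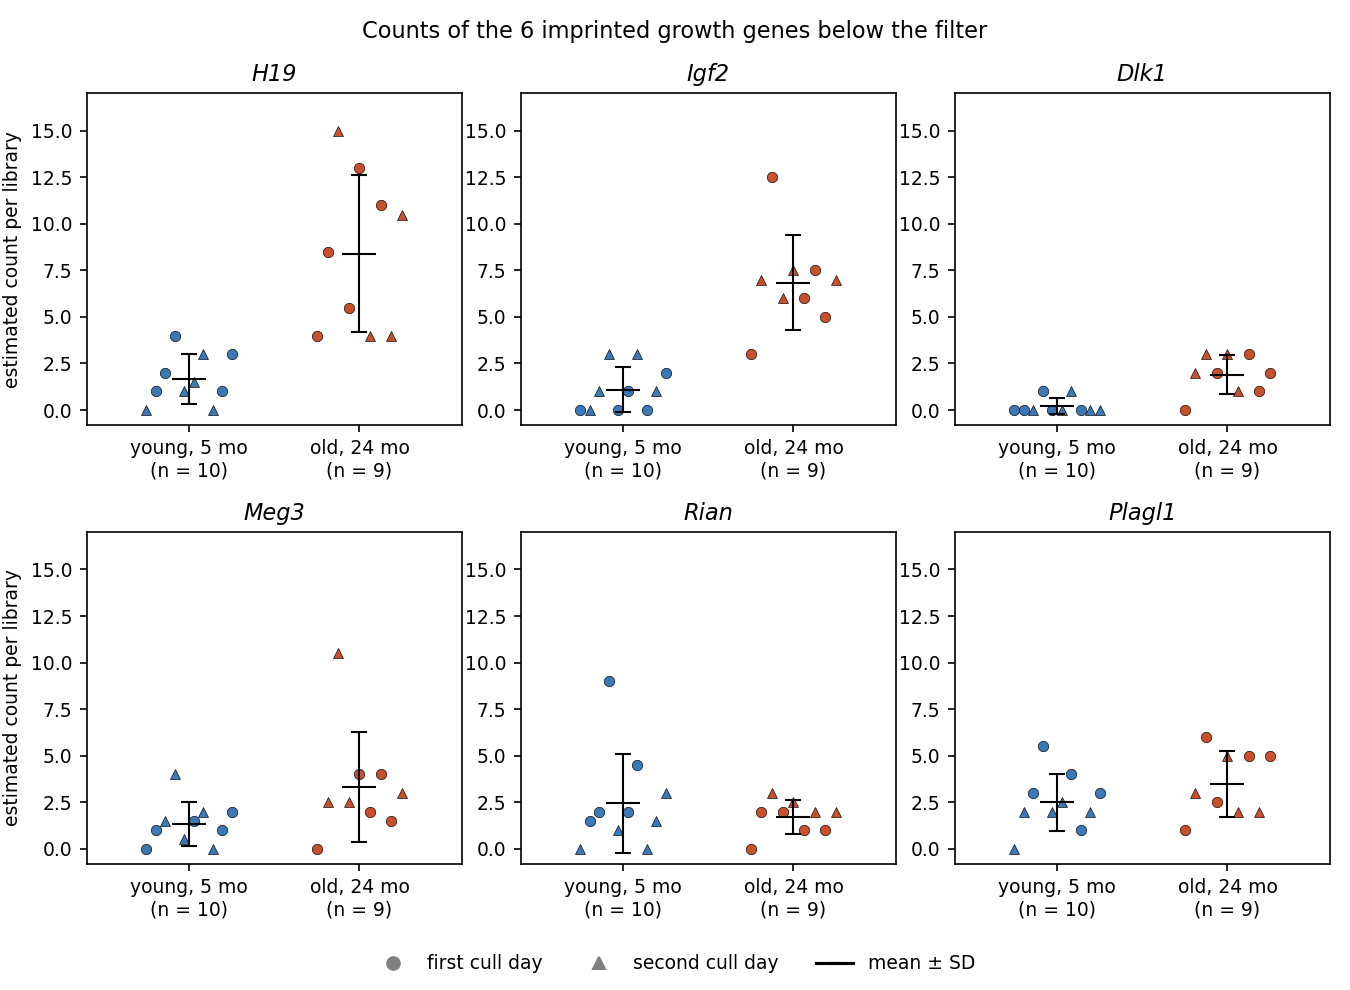
Estimated counts per library (y axis) of the 6 members below the filter, in young and old mice; each point is a mouse, shapes are cull days, bars are mean ± SD, and points are spread sideways for legibility. H19 runs from 0 to 4 in young and 4 to 15 in old mice and Igf2 from 0 to 3 and 3 to 12.5, while Meg3, Rian and Plagl1 overlap between ages.

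The stellate, endothelial and macrophage markers moved in the same direction as these 3 genes. So did those of T, NK and B cells. Of these, 8 of 9 were called as higher in old mice by edgeR without the filter, against 13.3% of all genes. They summed to 0.28 to 0.66 CPM in young and 1.30 to 27.8 CPM in old libraries, with no overlap. None of them was at 0 in every library. They passed no filter and were not in the score used next, and their part in the rises of H19, Igf2 and Dlk1 was not tested. With the mean log2 CPM of the 39 tested stellate, endothelial and macrophage markers added as a covariate, an alternative combination chosen after seeing the data, edgeR without the filter called 7.78% of all genes, 3.72% as higher and 4.06% as lower in old mice, and 2 of the 10 members, H19 and Igf2, both as higher. H19 then had a log2 fold change of 1.72 (adjusted p = 0.0383) and Igf2 of 2.29 (adjusted p = 0.0161). Dlk1 was no longer called (1.96, adjusted p = 0.138). Without old mouse 1187 and young mice 1184, 1186 and 1188 the differences were 0.34 CPM for H19 (exact permutation p = 0.00106), 0.30 CPM for Igf2 (exact permutation p = 0.00159) and 0.070 CPM for Dlk1 (exact permutation p = 0.0153).

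**Figure D2:**
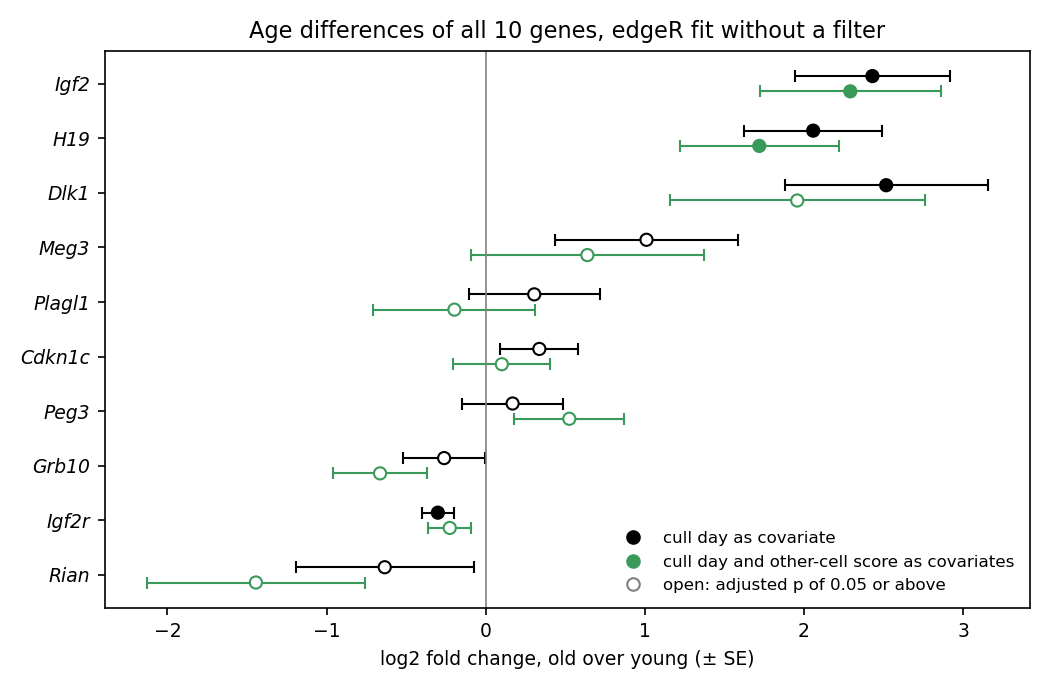
Log2 fold changes of old over young (x axis, ± SE) of all 10 members in edgeR without a filter, with cull day (black) or cull day and the other-cell score (green) as covariates; filled points had an adjusted p below 0.05. Igf2 (2.43 and 2.29) and H19 (2.06 and 1.72) are filled in both fits, and Dlk1 (2.52) and Igf2r (-0.30) only in the first.

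H19 and Igf2 counts split the mice by age, so the relation between them is given within ages only. In young mice Pearson's r of log2 CPM was 0.080 (permutation p = 0.823, n = 10) and Spearman's rho 0.17 (permutation p = 0.638), with r = 0.83 over the 8 mice left without the 2 farthest from the median. In old mice r was 0.22 (exact permutation p = 0.586, n = 9) and rho 0.067 (exact permutation p = 0.88), with r = -0.31 over 7 mice. Adjusted over 16 relations, the p-values of r were 0.98 and 0.817. No relation between the 2 genes within an age was detectable at these counts.

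**Figure D3:**
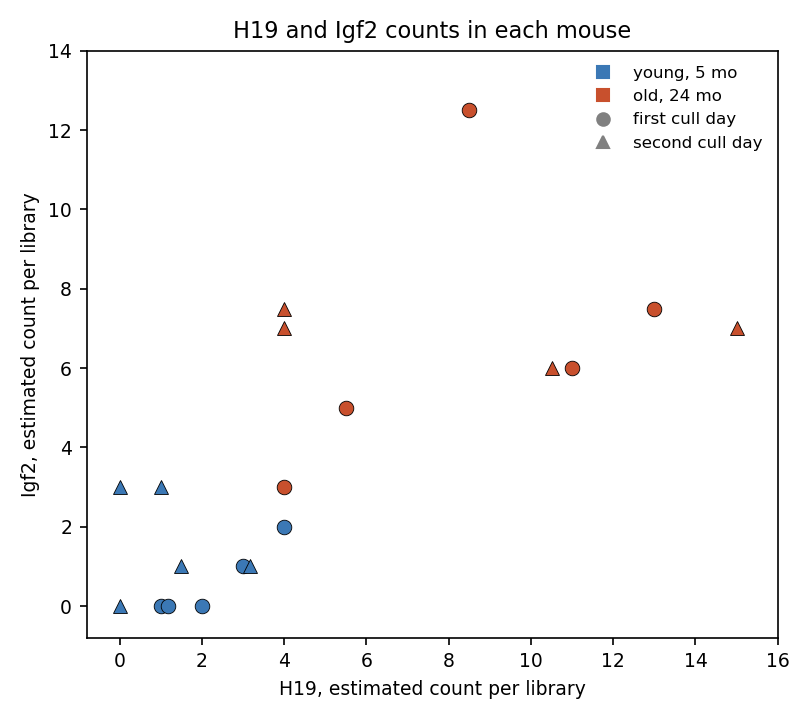
Estimated counts of H19 (x axis) and Igf2 (y axis) in each of the 19 mice, coloured by age and shaped by cull day; coinciding points are shifted slightly to the right. The old mice lie at 4 to 15 H19 and 3 to 12.5 Igf2 counts and the young mice at 0 to 4 and 0 to 3.

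Meg3 and Rian are maternally expressed non-coding RNAs downstream of Dlk1 on chromosome 12, and Rian is the host of many small nucleolar RNAs. Meg3 (109540996 to 109571729) starts 77.7 kb after the end of Dlk1, and Rian (109603945 to 109661711) 32.2 kb after Meg3. Meg3 had 0 to 4 counts in young (median 1.25) and 0 to 10.5 in old libraries (median 2.5), with a difference of 0.092 CPM (exact permutation p = 0.0875). The Meg3 ranges overlapped, and 1 old mouse, 1242, lay above all young mice. Mouse 1242 also had the second highest stellate, endothelial and macrophage marker sums, whose part in its Meg3 level was not tested. Without 1242 the Meg3 difference was 0.040 CPM. Meg3 had a log2 fold change of 1.01 in edgeR without the filter (adjusted p = 0.211), and of 0.64 with the other-cell covariate (adjusted p = 0.647). The exact permutation p fell below 0.05 without old mouse 1181 (0.0311), without young mouse 1235 (0.03) and on raw counts (0.028). Rian had 0 to 9 counts in young (median 1.75) and 0 to 3 in old libraries (median 2), and its difference was -0.050 CPM (exact permutation p = 0.366). Its difference was -0.15 CPM among first-day mice (exact permutation p = 0.00794) and 0.051 among second-day mice (exact permutation p = 0.222), and whether the days differed was not tested. The first-day value used rounded counts, in which the 1.5 counts of young mouse 1180 became 2 (0.105 CPM). Old mouse 1181 held 2 counts before rounding (0.102 CPM), so the first-day ages overlap in unrounded counts. The p-value on unrounded first-day counts is not given here. In edgeR without the filter the log2 fold change of Rian was -0.63 (adjusted p = 0.408), and -1.44 with the other-cell covariate (adjusted p = 0.208). Without young mouse 1186 the Rian difference over both days was -0.013 CPM. The log2 CPM of Meg3 and Rian, neighbours in one cluster, showed no relation that passed over the 19 libraries (r = -0.041, permutation p = 0.866, adjusted p = 0.872; rho = -0.16, permutation p = 0.514, adjusted p = 0.803), and r was -0.29 without the 2 farthest libraries. It was -0.25 on the first and 0.25 on the second cull day.

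Plagl1, a zinc finger transcription factor that slows the cell cycle and acts on other imprinted genes, did not pass. It lies on chromosome 10 (13090788 to 13131695). Its counts were 0 to 5.5 in young (median 2.25) and 1 to 6 in old libraries (median 3), a difference of 0.035 CPM (exact permutation p = 0.388). The Plagl1 difference was 0.016 CPM without 1242, 0.019 without 1185 or without 1186, and 0.053 without 1184. Plagl1 had a log2 fold change of 0.31 in edgeR without the filter (adjusted p = 0.614), and of -0.20 with the other-cell covariate (adjusted p = 0.892).

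Igf2r, the mannose 6-phosphate receptor that carries Igf2 to the lysosome for breakdown, was slightly lower in old mice and sat at the threshold. It lies on chromosome 17 (12682406 to 12769706). Its levels ran from 31.4 to 66.2 CPM in young (median 38.5) and from 25.8 to 47.1 CPM in old mice (median 34.1). The ranges overlapped, with 2 of 9 old mice below all young mice and 2 of 10 young mice, 1180 and 1186, above all old mice. The log2 fold change was -0.27 (SE 0.10, edgeR adjusted p = 0.051), and it was -0.22 on the first and -0.32 on the second cull day. It passed with DESeq2 (-0.28, adjusted p = 0.0326) and with the size factors of DESeq2 in edgeR (-0.28, adjusted p = 0.044, in a fit that called 31.6% of all genes), and the adjusted p ran from 0.0305 to 0.108 when each mouse was left out, with 5 of 19 below 0.05 (without 1181, 1184, 1188, 1189 or 1243). With the other-cell score added to the filtered fit it was -0.22 (adjusted p = 0.309). Airn, the antisense transcript that silences the paternal copy of Igf2r, had 27 counts in all against 14148 for Igf2r. The genes whose levels ranked the libraries most like Igf2r, among 11131 compared, were Abcc2 (Spearman's rho 0.94), Epg5 (0.91) and Lyst (0.90), as a description over 19 libraries.

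Grb10, an adaptor that damps signalling from the insulin and IGF1 receptors, did not pass. It lies on chromosome 11 (11930499 to 12037420). Its levels were 0.67 to 2.95 CPM in young (median 1.56) and 0.94 to 2.62 CPM in old mice (median 1.31), and the ranges overlapped. The log2 fold change was -0.23 (SE 0.26, edgeR adjusted p = 0.527), -0.39 without old mouse 1187, -0.075 without young mouse 1184 and -0.15 without young mouse 1243. With the other-cell covariate, under which 12.2% of all genes were called, it was -0.65 (adjusted p = 0.151). Cdkn1c, the cyclin-dependent kinase inhibitor p57, also did not pass (0.37, SE 0.24, edgeR adjusted p = 0.244). It lies on chromosome 7 (143458339 to 143461050), 799.5 kb from Igf2. It ranged from 0.53 to 1.10 CPM in young (median 0.80) and more widely in old mice, from 0.37 to 1.75 CPM (median 0.95). Old mouse 1187 was the highest of its age for Grb10 and Cdkn1c, and without it the log2 fold change of Cdkn1c was 0.23. That of Cdkn1c was 0.17 without 1187 and young mice 1184, 1186 and 1188, and 0.60 on the first and 0.13 on the second cull day. With the other-cell covariate Cdkn1c was at 0.11 (adjusted p = 0.836). Peg3, a zinc finger protein on chromosome 7 (6705960 to 6730419), had 0.62 to 2.57 CPM in young (median 1.09) and 0.58 to 3.12 CPM in old mice (median 1.38). Its log2 fold change was 0.20 (SE 0.32, edgeR adjusted p = 0.671), with 0.61 on the first and -0.29 on the second cull day, and it ran from 0.032 without old mouse 1183 to 0.38 without young mouse 1237 as each mouse was left out. Leaving out 1182, 1188, 1236, 1238 or 1242 also moved it by over 1.5 times, to between 0.083 and 0.32. With the other-cell covariate Peg3 was at 0.54 (adjusted p = 0.323). An antisense row, Peg3os, held 83 counts against 504.5 for Peg3; whether the counting used strand is not given in the sources used here.

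**Figure D4:**
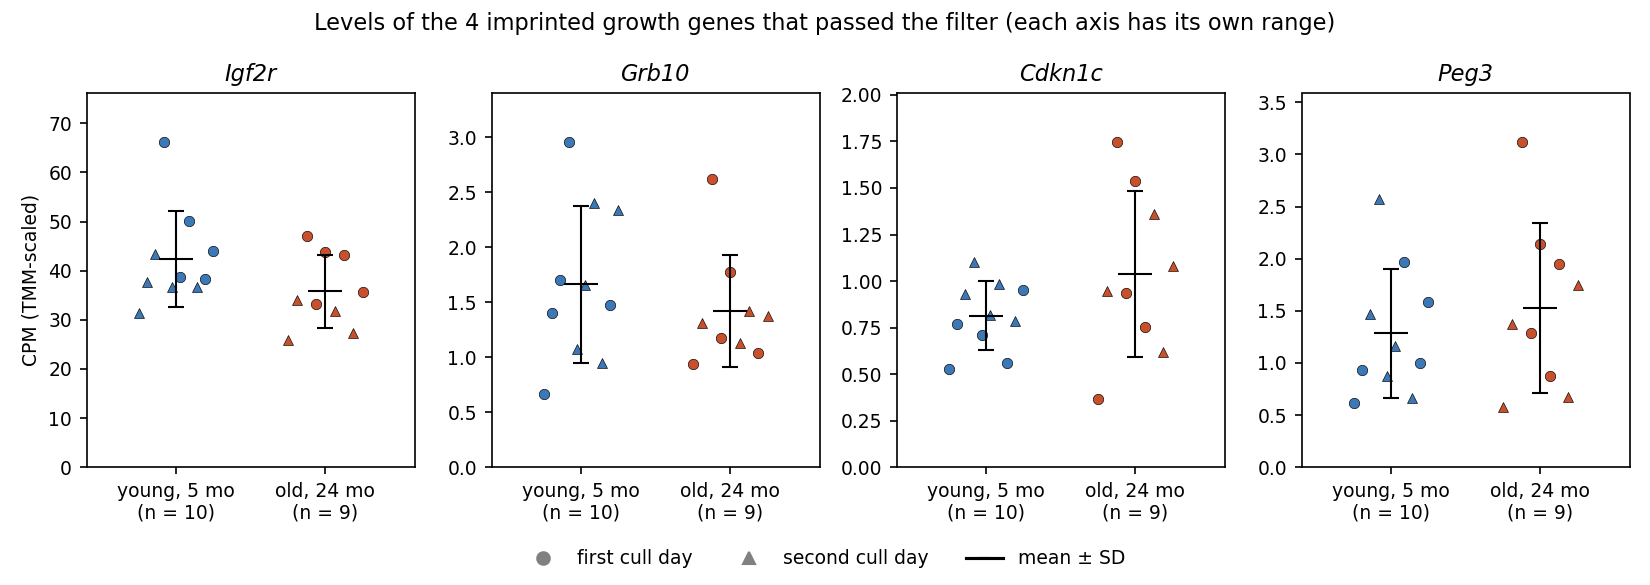
CPM per library (y axis, TMM-scaled, a separate range for each gene starting at 0) of the 4 members that passed the filter, in young and old mice; each point is a mouse, shapes are cull days and bars are mean ± SD. The ages overlap in every panel, including Igf2r at 31.4 to 66.2 CPM in young and 25.8 to 47.1 CPM in old mice.

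The genes ranked most like Grb10 over the 19 libraries were Blvra (rho 0.73), Ndufaf7 (0.67) and Recql4 (0.65), and those most like Peg3 were Syne2 (0.82), Setd5 (0.81) and Dlg5 (0.81). Across all libraries, the 12 relations of Igf2r, Grb10, Cdkn1c and Peg3 with the stellate, endothelial and macrophage scores had r from -0.33 to 0.40 and none passed (smallest adjusted permutation p = 0.467). Within old mice they ran from -0.72 to 0.83 (n = 9, smallest adjusted exact permutation p = 0.142) and within young mice from -0.32 to 0.38 (n = 10, smallest adjusted permutation p = 0.98). For the interaction of age and cull day, 0 of 12269 genes passed in edgeR, with 799 below an unadjusted p of 0.05; the members that passed the filter had interaction p-values of 0.16 to 0.653 before adjustment (0.866 to 0.966 after it).

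Other genes with parent-of-origin expression in at least one mouse tissue were read in the same fit. Of 50 listed, 28 passed the filter and 10 were called (35.7%, against 30.9% of all genes), 8 as higher and 2 as lower in old mice, with a median log2 fold change of 0.028 over the 28. The 5 rises with the smallest p were Sgce, a sarcoglycan (0.98, SE 0.13, edgeR adjusted p = 8.2e-05), Dcn, the matrix proteoglycan decorin (1.62, adjusted p = 0.000204), the non-coding Peg13 (0.92, adjusted p = 0.000233), the retrotransposon-derived Peg10 (0.89, adjusted p = 0.0112) and the scaffold gene Ppp1r9a (0.64, adjusted p = 0.0126). Dcn is also one of the stellate cell markers and part of the other-cell score. Ube3a, a ubiquitin ligase, fell by 0.64 (adjusted p = 0.00456) and Mcts2 by 0.36 (adjusted p = 0.0383). Mcts2 was not called in 11 of the 19 fits that left out a mouse (adjusted p up to 0.0698), and the other 6 were called in all 19. With the other-cell covariate 6 of the 28 were called (12.2% of all genes were), all as higher, namely Kcnq1ot1 (1.13), Sgce (1.05), Dcn (0.85), Peg13 (0.64), Peg10 (1.20) and Ppp1r9a (0.91). Ube3a was no longer called, at -0.57 (adjusted p = 0.0674). Without the filter 44 of the 50 were fitted in edgeR. Of these, 11 were called as higher and 2 as lower, against 13.3% and 11.6% of all genes. Those called that were too low for the filter were Ndn (1.57, adjusted p = 0.0128), Mkrn3 (1.32, adjusted p = 0.0207) and Sfmbt2 (1.89, adjusted p = 0.0318). Like H19, Igf2 and Dlk1, they were higher in old mice.

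**Figure D5:**
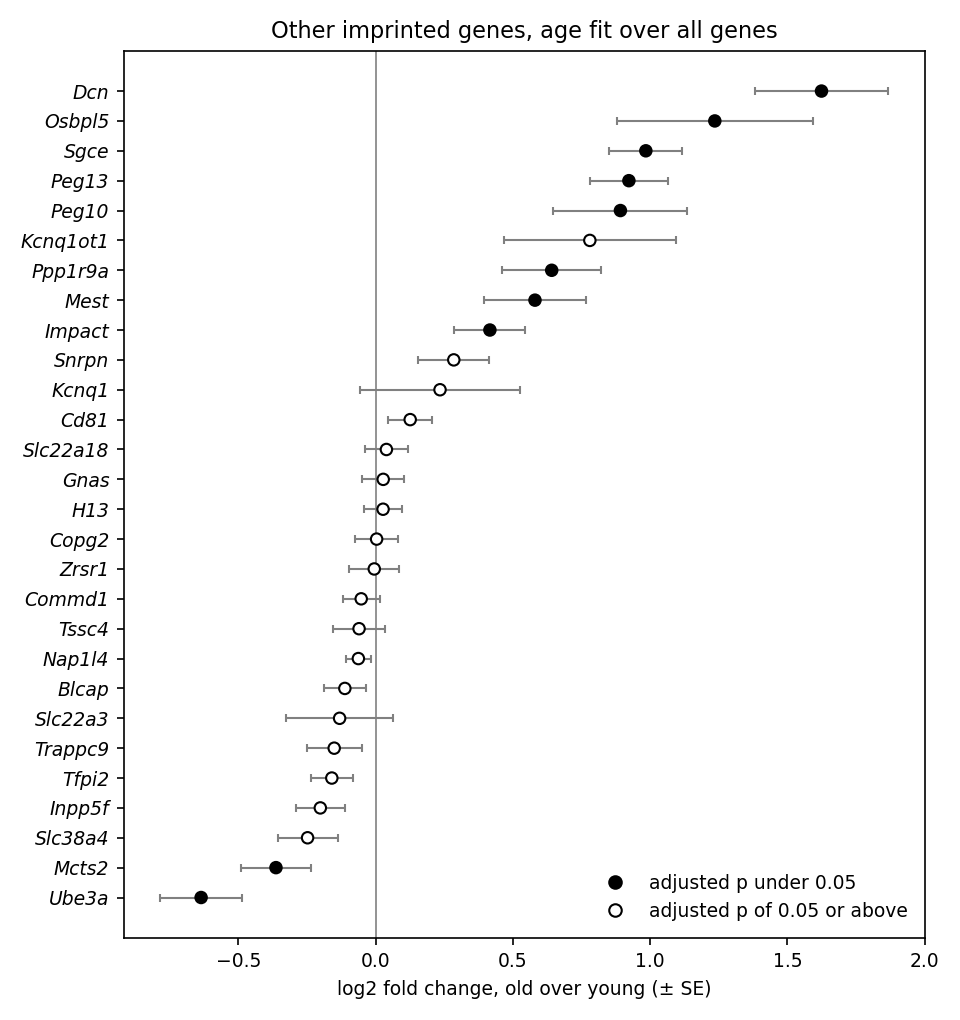
Log2 fold changes of old over young (x axis, ± SE) of the 28 other imprinted genes that passed the filter, ordered by value; filled points had an adjusted p below 0.05 in edgeR. The called genes run from -0.64 for Ube3a to 1.62 for Dcn, and 18 of the 28 are open points.

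Fetal liver genes other than the members were read beside H19 and Igf2. Of 10 listed, 3 passed the filter and 1 was called (33.3%, against 30.9% of all genes). Afp, the fetal albumin relative, had 11 to 25 counts in young and 11.5 to 98.5 in old libraries (medians 17.25 and 17.5), and its log2 fold change was 0.35 (SE 0.32, edgeR adjusted p = 0.437). The Afp value turned to -0.15 without old mouse 1187, -0.13 without the 4 mice named above and -0.49 with the other-cell covariate (adjusted p = 0.377). Lpl, lipoprotein lipase, rose by 1.79 (SE 0.47, edgeR adjusted p = 0.0087), and was at 0.97 without old mouse 1187 and at -0.17 with the other-cell covariate (adjusted p = 0.768). Gpc3 had at most 2 counts in any young and 3 in any old library, and Lin28b had none in any library. Of 3 repressors of fetal liver genes, Zbtb20, a zinc finger protein that silences Afp after birth, fell by 1.04 on the log2 scale (SE 0.26, edgeR adjusted p = 0.00589), with a mean ± SD of 4.07 ± 2.38 CPM over the 10 young and 1.95 ± 0.64 CPM over the 9 old mice. Zfhx3 fell by 0.43 (SE 0.15, edgeR adjusted p = 0.0373), and Zhx2, which represses Afp and H19 in adult liver, was at -0.13 (SE 0.10, edgeR adjusted p = 0.307). With the other-cell covariate Zbtb20 (-0.74, adjusted p = 0.134) and Zfhx3 (-0.35, adjusted p = 0.245) did not pass, and on either cull day alone 0 of the 3 did. Zbtb20 was called whichever mouse was left out, and Zfhx3 was not called without 1180, 1181, 1185, 1187, 1235, 1237, 1240 or 1242 (adjusted p up to 0.0859).

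In the IGF axis 12 of 14 genes passed the filter and 2 were called (16.7%, against 30.9% of all genes), both as higher, with a median log2 fold change of -0.044. Igf1, the main liver growth factor after birth, averaged 456 CPM (SD 37.5, n = 10) in young and 482 CPM (SD 69.0, n = 9) in old mice and did not pass (0.085, SE 0.082, edgeR adjusted p = 0.455). Igf1r, the receptor for Igf1 and Igf2, rose by 1.16 (SE 0.24, edgeR adjusted p = 0.00224) from 0.68 to 1.52 CPM, and was at 0.51 with the other-cell score (adjusted p = 0.117). Igfbp3, the main carrier of IGFs in blood, rose by 2.54 (SE 0.49, edgeR adjusted p = 0.00128), from a median of 29 to 121.5 counts per library with 1037 in old mouse 1187. With the other-cell score it was at 0.88 (adjusted p = 0.0347).

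Of 17 genes that write, read, protect or oxidise DNA methylation, or insulate imprinted regions, 13 passed the filter and 2 were called (15.4%, against 30.9% of all genes). The methylcytosine oxidase Tet2 rose by 0.54 (SE 0.14, edgeR adjusted p = 0.00944) and the DNA methyltransferase Dnmt3b by 0.62 (SE 0.22, edgeR adjusted p = 0.0426). Dnmt1, the maintenance methyltransferase, was at 0.24 (SE 0.13, edgeR adjusted p = 0.182). Ctcf, the insulator protein that separates Igf2 from the shared enhancers on the maternal copy, was at -0.083 (SE 0.058, edgeR adjusted p = 0.295). Tet2 was called whichever mouse was left out, and Dnmt3b was not called in 11 of the 19 such fits (adjusted p up to 0.0907).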

How the data were processed

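The authors deposited estimated counts per gene for 19 libraries: per the file headers, HOMER's analyzeRepeats.pl counted reads in RefSeq exons on mm10, condensed transcripts to genes and left values raw, in steps of 0.5 (29.2% of values not whole). The submitters' processing notes also name STAR and GRCm38; versions, strand setting and the handling of reads with several matches are not given in the sources used here. That libraries are separate mice rests on the labels, and p-values measure the spread between these libraries.

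Counts were rounded to whole numbers and fitted with edgeR 4.0.16 (R 4.3.3; filterByExpr, minimum count 10). The test had been fixed for counts. DESeq2 1.42.0 and limma 3.58.1 were alternatives, as were other scalings, filters, covariates and sets of mice. The fit and the permutation test were checked on simulated data. CPM used TMM-scaled totals, and log2 CPM a prior count of 2. Intervals are exact (Clopper-Pearson). The floor for a fold was 3 counts over a group. Dlk1 in young mice, with 2 counts, did not reach it, so its fold changes are not read as sizes. Relations used 100000 permutations, or all orders for 9 mice.

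Members and lists were chosen with earlier results of these data known. Every member is named. From each other list apart from the cell type markers, the 5 called genes with the smallest p in each direction are named. Afp, Zhx2, Zbtb20, Igf1, Igf1r, Ctcf and Dnmt1 are named whatever their result. For the members of at least 1 CPM, the 3 genes with the highest Spearman correlation are named. Airn, Peg3os, Gpc3, Lin28b, Kcnq1ot1, Ndn, Mkrn3, Sfmbt2, the named cell type markers and the neighbours of Sgce are outside this rule. T, NK and B cell, cholangiocyte and mesothelial markers had 0, 2 and 0 genes past the filter and were not in the other-cell score. Promoter entries matched 8 of the 10 members.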

Additional observations from a re-analysis of the deposited data

Results flagged for a closer look

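In 4 of the 20 combinations of member and age, the highest library stood apart from the others of its age by a gap test. The nominal rate of the test is about 1 in 20, which need not hold for counts near 0 such as those of Meg3 and Rian. Old mouse 1242 had 0.53 CPM of Meg3 (10.5 counts), with the next old mouse at 0.21 CPM. Young mouse 1235 had 0.23 CPM of Meg3 (4 counts), with the next at 0.11 CPM. Young mouse 1186 had 0.50 CPM of Rian (9 counts), with the next at 0.22 CPM. Old mouse 1187 had 2.62 CPM of Grb10 (60.5 counts), with the other old mice at 0.94 to 1.77 CPM; it is also the mouse with the highest macrophage marker sum, whose part in this value was not tested. The H19, Igf2 and Dlk1 counts held no such library.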

How the results depend on the processing

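The count of 3785 genes called by age was 1501 with the other-cell covariate, 450 on the first cull day alone and 2389 on the second. With library totals alone 2098 genes were called as higher and 1169 as lower in old mice, against 2005 and 1780 with TMM scaling. The member count of 0 in the filtered fit became 1, Igf2r as lower, with size factors, with DESeq2 and without mice 1184, 1186, 1188 and 1187, was 4 of 10 without a filter, and ran from 0 to 1 over single mice left out. The count of 10 other imprinted genes was 6 with the covariate, 5 of them among the 10, 2 on the first day and 6 on the second. The fetal liver count of 1 was 0 with the covariate and on the first day. The repressor count of 2 was 1 with library totals or no cull day term, 0 with the covariate and on either day, and 1 to 2 over mice left out. The IGF axis count of 2 was 0 on the first day. The methylation count of 2 was 4 with the covariate, 0 on the first day and 1 to 3 over mice left out. Single days hold fewer mice; otherwise the cause was not tested. H19, Igf2 and Dlk1 kept their direction in all 29 alternatives each; without a filter on the first day alone H19 (1.71, edgeR adjusted p = 0.0874), Igf2 (3.12, 0.0609) and Dlk1 (2.26, 0.203) missed the threshold, as did Dlk1 on the second (2.77, 0.0604). Uncalled values that changed sign included Peg3 (-0.29, second day), Rian (0.74, second day, and 0.13 without the 4 mice), Plagl1 (-0.20, covariate), Afp (-0.49, covariate, -0.13 without the 4 mice and -0.15 without 1187), Dnmt1 (-0.051, covariate), Zhx2 (0.0034, second day), Casd1 and Pon1 (0.092 and 0.24, covariate) and the Meg3 and Rian relation (0.0088, prior count 0.5). No paired analysis was possible because mouse numbers are not shared between ages. The 6 low members had 0 to 15 counts per library, and the ratio detectable at that depth was not tested.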

Other observations

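Sgce, Peg10 and Ppp1r9a lie side by side in a cluster of imprinted genes on chromosome 6, chosen here after their values were seen. Between Calcr and Asb4 (3685720 to 5433021) the table held 17 rows, of which 12 passed the filter. Of these, 5 were called as higher and 1 as lower in old mice (16.3% and 14.5% of all genes tested were). Sgce, Peg10 and Ppp1r9a, 3 of the 5, were known when the interval was chosen. Another of the 5, Col1a2, is one of the stellate cell markers summed above. Over the 10 young and the 9 old mice, Sgce averaged 4.66 ± 0.86 and 9.22 ± 1.98 CPM (mean ± SD), Peg10 3.01 ± 0.71 and 5.57 ± 2.88 CPM, and Ppp1r9a 5.81 ± 1.24 and 9.07 ± 3.13 CPM. The neighbours did not move as a block: Casd1 before Sgce had a log2 fold change of -0.036 (edgeR adjusted p = 0.728) and Pon1, Pon3 and Pon2 after Ppp1r9a had -0.034, 0.089 and 0.13 (edgeR adjusted p = 0.872, 0.46 and 0.0673). Further off, the G protein subunit gene Gng11 (0.88) and the collagen gene Col1a2 (1.10) were higher and Bet1 lower (-0.24). With the other-cell covariate Col1a2, itself one of the markers in that score, was at -0.035 (adjusted p = 0.929), while Gng11 was at 0.72 (adjusted p = 0.0103). Bet1 was no longer called (-0.18, adjusted p = 0.242), and Gngt1, beside Gng11, was called with it (1.36, adjusted p = 0.0329) and not without it (0.74, adjusted p = 0.103).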
